A study of Mus musculus with 8 samples.

Results

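Cd8a, Cd8b1 and 8 genes of the cytotoxic program, Prf1, Gzma, Gzmb, Gzmk, Nkg7, Klrk1, Ifng and Fasl, were followed in tumors that did or did not carry an intact Il6 gene. The 10 genes were chosen by symbol, and all 10 were among the 27179 genes deposited. A CD8 T cell recognizes peptide on MHC class I, with the CD8 co-receptor binding the MHC molecule beside the T cell receptor. It kills by releasing granules that hold perforin and granzymes, by showing Fas ligand to cells that carry Fas, and it secretes interferon gamma, which acts on the tumor and on nearby macrophages. NK cells use the same granules and effectors without a T cell receptor, so of these genes only the CD8 chains point to T cells, and Cd8a is also transcribed by cross-presenting dendritic cells (cDC1).

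The tumors were C26 colon carcinomas, a mouse line that causes wasting, grown under the skin of male CD2F1 mice until cachexia had developed, by the general rule of the study a loss of over 15% of body weight. In the cxC26 scr group, the control tumors (n = 4), the implanted cells carried Cas9 with a scrambled guide RNA, and in the cxC26 IL6KOs1 group, the knockout tumors (n = 4), they were knockout subclone 1, a line grown from a single cell in which Il6 had been disrupted with CRISPR/Cas9, so clone and genotype cannot be told apart. The host mice had an intact Il6 gene in both groups, and by the methods of the study more cells were implanted and more time passed in the knockout group, which also cannot be told apart from genotype. Each library is bulk polyA RNA of 1 tumor, in which more cells of a type and more RNA per cell cannot be told apart, and the labels number the tumors from 1 to 4 in each group without naming mice, so p-values measure the spread between these tumors.

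The libraries held 14158989 to 17048062 reads on genes, with overlapping totals in the groups. The targeted gene, Il6, had 326 to 438 reads in the control tumors and 56 to 86 in the knockout tumors (log2 fold change -2.45, limma adjusted p = 9.87e-07), and reads from host cells are included. The colon marker Krt20 had 17390 to 22185 reads in every tumor, whereas Krt19 and Vil1, which are usual in colon epithelium, had at most 3 reads in any tumor. The tumors cxC26 IL6KOs1 1 and cxC26 scr 2 stood apart from the others of their groups in the cytotoxic genes. Over the 10 genes, summed CPM (reads scaled to library size) were 56.9 in cxC26 IL6KOs1 1 and 16.7 to 22.0 in the other tumors of that group, and 6.12 in cxC26 scr 2 and 1.75 to 2.10 in the other cxC26 scr tumors. Results are therefore given with and without these tumors. Because both were picked by the levels of these same genes, the fits without both are descriptions and not independent checks.

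The genes lie apart in the genome, except for the CD8 pair and Gzma with Gzmk. Klrk1 shares a chromosome with the CD8 pair, and Prf1 with Ifng, but far apart. In GRCm38.p6 coordinates of RefSeq, Cd8b1 spans chr6:71322788-71337492 and Cd8a chr6:71373427-71379171, Klrk1 chr6:129610323-129623903, Nkg7 chr7:43437138-43438246, Prf1 chr10:61297751-61304684, Ifng chr10:118441046-118445894, Gzma chr13:113093824-113100981, Gzmk chr13:113171630-113180965, Gzmb chr14:56258836-56262334 and Fasl chr1:161780691-161788495. Gzma shares its span with Cdc20b, and reads in the overlap cannot be assigned by position alone. No stretch of 50 bases in GENCODE transcripts of Prf1, Gzma, Gzmb, Gzmk, Nkg7, Klrk1 or Fasl occurs in a transcript of another gene. The share that does was 0.0815% for Cd8a, 6.28% for Cd8b1 and 19.9% for Ifng, where all of it lay in the single predicted gene Gm49751. Nearly identical sequence and copies outside these transcripts were not examined.

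Because the genes moved together between the groups, the sequences before the starts of Gzmb, Nkg7, Gzmk and Prf1 are shown, granule genes with matches to motifs of RUNX or T-box factors, which act in cytotoxic lymphocytes. They are the RefSeq bases (GRCm38.p6) before the transcription start, 5′ to 3′ on the strand of the gene, and the capitals mark matches on either strand to the motifs TGTGGT (RUNX), GGTGTGA (T-box), TGANTCA (AP-1) and TTCNNNGAA (STAT). Bases inside the span of the gene itself were left out, which shortened Prf1 to 165 bases.
Gzmb, chr14:56262335-56262584, minus strand: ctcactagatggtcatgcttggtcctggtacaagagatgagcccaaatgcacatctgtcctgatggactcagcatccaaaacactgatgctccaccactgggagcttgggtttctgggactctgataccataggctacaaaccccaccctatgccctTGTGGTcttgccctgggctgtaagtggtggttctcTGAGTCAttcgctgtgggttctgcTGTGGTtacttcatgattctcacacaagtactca
Nkg7, chr7:43436888-43437137, plus strand: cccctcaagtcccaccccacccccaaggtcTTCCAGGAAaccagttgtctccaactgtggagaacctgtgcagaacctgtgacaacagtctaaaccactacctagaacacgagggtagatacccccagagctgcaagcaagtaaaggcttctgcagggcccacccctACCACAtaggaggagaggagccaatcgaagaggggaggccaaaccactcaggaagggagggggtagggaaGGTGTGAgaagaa
Gzmk, chr13:113180966-113181215, minus strand: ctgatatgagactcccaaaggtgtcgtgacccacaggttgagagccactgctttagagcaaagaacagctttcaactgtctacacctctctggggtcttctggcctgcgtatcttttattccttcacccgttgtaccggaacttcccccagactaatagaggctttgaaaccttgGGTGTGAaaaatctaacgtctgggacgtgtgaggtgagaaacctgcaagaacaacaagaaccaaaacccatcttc
Prf1, chr10:61297586-61297750, plus strand: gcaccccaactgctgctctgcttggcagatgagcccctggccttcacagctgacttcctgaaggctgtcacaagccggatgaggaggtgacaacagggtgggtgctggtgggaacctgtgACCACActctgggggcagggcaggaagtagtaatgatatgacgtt

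Gzmb held 2 RUNX matches, which began 93 and 34 bases before the start, with an AP-1 match at 58 bases between them. Nkg7 held a STAT, a RUNX and a T-box match at 220, 83 and 13 bases before the start. Gzmk held a T-box match at 75 bases. Prf1 held a RUNX match that began 45 bases before the end of the bases shown. That is 130 bases before a start inside the span of the gene. Of the 9 genes with a sequence (Cd8b1 had none), RUNX letters were found in 5 (Gzma, Gzmb, Klrk1, Nkg7 and Prf1), T-box letters in 2 (Gzmk and Nkg7), STAT letters in 2 (Ifng and Nkg7) and AP-1 letters in 1 (Gzmb). Over the 250 bases before all 32851 RefSeq starts, 14% held the RUNX letters, 3.33% the T-box letters, 7.02% the STAT letters and 6.75% the AP-1 letters. None of the 4 motifs was found before Cd8a or Fasl. A match is a string of letters and not a measured binding site.

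In the comparison of the groups, 9 of the 10 genes were higher in cxC26 IL6KOs1 tumors at an adjusted p under 0.05 (limma over 17078 genes with at least 10 reads in total, which include all 10), and none was lower. Of all genes tested, 15.9% were called higher and 16.2% lower. Among the 4325 genes with total reads in the range of these 10 genes, 14.8% were called higher and 7.98% lower. The median log2 fold change was 3.17 over the 10 genes and 0.02 over all genes. Ifng had no read in any cxC26 scr tumor, and with Ifng set to its fold against 3 control reads the median was 3.43. In CPM, 6 of the 10 genes did not overlap between the groups, all of them higher in the knockout tumors, whereas 15.5% of all genes were higher and 16% lower without overlap. On the deposited log2 scale the count was 7, against 15.6% of all genes higher and 16% lower, and the seventh gene was Ifng, whose place there rests on the added 0.5 reads.

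**Figure D1:**
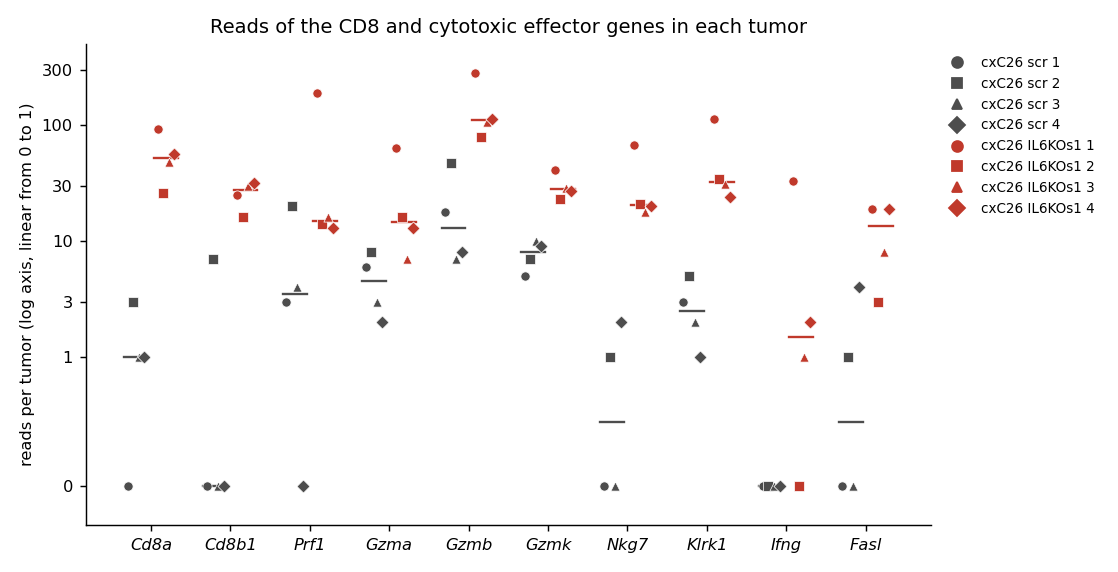
Reads of each of the 10 genes in the 8 tumors, with the number of reads on a log axis that is linear from 0 to 1, grey for cxC26 scr, red for cxC26 IL6KOs1, a marker shape for each tumor number and a bar at the group median. Cd8a, Cd8b1, Gzmb, Gzmk, Nkg7 and Klrk1 are separated between the groups, and the red circle, cxC26 IL6KOs1 1, is far above the other tumors for Prf1 (190 reads) and Ifng (33 reads).

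The co-receptor chains were close to absent from the control tumors. Cd8a, the alpha chain, had 0, 3, 1 and 1 reads in cxC26 scr tumors 1 to 4 and 92, 26, 48 and 56 reads in cxC26 IL6KOs1 tumors 1 to 4. Cd8b1, the beta chain that pairs with the alpha chain on conventional CD8 T cells, had 0, 7, 0 and 0 reads in the control tumors and 25, 16, 30 and 32 in the knockout tumors. Every knockout tumor was above every control tumor in both chains, and all Cd8b1 reads of the control group came from cxC26 scr 2. The log2 fold change from limma was 5.23 (SE 0.588, adjusted p = 4.79e-05) for Cd8a and 4.74 (SE 0.802, adjusted p = 0.000803) for Cd8b1. Pooled over tumors and scaled to library size, reads were 46.0 times higher for Cd8a (95% interval 19.4 to 143, exact conditional, counting error only) and 15.2 times higher for Cd8b1 (7.13 to 38.8). For each chain an exact permutation test over the 70 splits of the tumors reached its smallest possible value, p = 0.0286. Without cxC26 IL6KOs1 1 the pooled ratios were 36.8 and 15.8, and in CPM cxC26 IL6KOs1 1 held 39.2% of the knockout level of Cd8a but 22.6% of that of Cd8b1, where 25% would be an even share.

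Perforin showed the widest spread among the knockout tumors of the genes called. Prf1, whose product makes the pores through which granzymes enter, had 3, 20, 4 and 0 reads in the control tumors and 190, 14, 16 and 13 in the knockout tumors. The groups overlapped, because cxC26 scr 2 with 20 reads was above 3 of the knockout tumors. Prf1 was called higher with a log2 fold change of 3.02 (SE 1.03, limma adjusted p = 0.0403), but the permutation test, which is exact, gave p = 0.114. cxC26 IL6KOs1 1 held 80.0% of the knockout level and was 12.0 times the mean of the other knockout tumors. Without this tumor the log2 fold change was 2.14 (SE 0.922) and the call was lost (limma adjusted p = 0.0994), and without cxC26 scr 2 as well it was 2.96 (SE 0.792, adjusted p = 0.0182).

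The granzymes, serine proteases that enter the target cell, differed in how evenly they were spread. Gzmb, which cleaves after aspartate and activates caspases, had 18, 47, 7 and 8 reads in the control tumors and 280, 79, 107 and 113 in the knockout tumors. Gzmk, a trypsin-like granzyme, had 5, 7, 10 and 9 reads in the control tumors and 41, 23, 29 and 27 in the knockout tumors. Both were separated between the groups. Gzma, the other trypsin-like granzyme, had 6, 8, 3 and 2 reads in the control tumors and 64, 16, 7 and 13 in the knockout tumors, so that cxC26 IL6KOs1 3 lay within the range of the controls. The log2 fold change from limma was 3.11 (SE 0.508, adjusted p = 0.000640) for Gzmb, 1.95 (SE 0.348, adjusted p = 0.00112) for Gzmk and 2.00 (SE 0.617, adjusted p = 0.0260) for Gzma. In pooled reads Gzmb was 7.49 times higher (5.92 to 9.59), Gzmk 4.01 times (2.68 to 6.16) and Gzma 5.45 times (3.31 to 9.43). The exact permutation p was 0.0286 for Gzmb and for Gzmk, and 0.0571 for Gzma.

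Gzmk was the most even of the 10 genes within each group on the log2 scale, apart from the absent Ifng of the controls. Its SD over tumors was 0.51 in the cxC26 scr group and 0.26 in the cxC26 IL6KOs1 group, and cxC26 IL6KOs1 1 held 32.0% of its knockout level. That tumor held 45.9% of the level of Gzmb and 61.2% of that of Gzma. Without it, the pooled ratio was 5.30 for Gzmb and 3.61 for Gzmk, with limma adjusted p-values of 0.00127 and 0.00351. For Gzma it was 2.68 (1.5 to 4.95) and the call was lost (log2 fold change 1.43, SE 0.547, limma adjusted p = 0.0664), whereas with cxC26 scr 2 left out as well the adjusted p was 0.0474.

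Nkg7 and Klrk1, a granule protein and a receptor, were near 0 in the control tumors. Nkg7, a membrane protein of cytotoxic granules needed for their release, had 0, 1, 0 and 2 reads in the control tumors and 68, 21, 18 and 20 in the knockout tumors. Klrk1 encodes NKG2D, which binds stress-induced ligands on target cells, and had 3, 5, 2 and 1 reads in the control tumors and 113, 34, 31 and 24 in the knockout tumors. Neither gene overlapped between the groups, and cxC26 IL6KOs1 1 held 50.9% of the knockout level of Nkg7 and 53.4% of that of Klrk1. The log2 fold change was 4.85 for Nkg7 (SE 0.648, limma adjusted p = 0.000167) and 3.89 for Klrk1 (SE 0.522, limma adjusted p = 0.000170), with an exact permutation p of 0.0286 for each. The pooled ratio was 43.8 for Nkg7, on 3 reads in the control group (14.7 to 215), and 19.0 for Klrk1 (10.4 to 38.7). Without cxC26 IL6KOs1 1 the ratios were 27.9 and 11.5, and both genes remained called (limma adjusted p = 0.000458 and 0.000293).

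Interferon gamma was read almost only in the tumor that stood apart. Ifng had no read in any cxC26 scr tumor. There 3 reads, about the upper 95% limit for a count of 0, would be 0.180 to 0.211 CPM. In the cxC26 IL6KOs1 tumors Ifng had 33, 0, 1 and 2 reads. cxC26 IL6KOs1 1 held 91.0% of the group's level, and cxC26 IL6KOs1 2 had none, like the controls. Against 3 reads for the whole control group the pooled level was 12.4-fold higher. The lower end of the exact 95% interval of the pooled ratio was 9.60. Without cxC26 IL6KOs1 1, 3 reads were left and no fold is given. Ifng was not called in limma (log2 fold change 2.54, SE 1.11, adjusted p = 0.0990), a value that depends on the 0.5 reads added before taking logs. The groups did not overlap on the log2 scale (exact permutation p = 0.0286) because cxC26 IL6KOs1 2 had the smallest effective library size (96.2% of its total after the authors' scaling), so its 0 reads stand at -4.79 log2 CPM against -5.06 to -4.83 in the controls.

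Fas ligand lay between these patterns. Fasl, the surface ligand that triggers death through Fas, had 0, 1, 0 and 4 reads in the control tumors and 19, 3, 8 and 19 in the knockout tumors. The groups overlapped, since cxC26 IL6KOs1 2 was below cxC26 scr 4. Fasl was called higher (log2 fold change 3.23, SE 0.814, limma adjusted p = 0.00938), with a pooled ratio of 10.1 (4.06 to 32.6) and an exact permutation p of 0.0571. It was not concentrated in cxC26 IL6KOs1 1, which held 36.5% of the knockout level while cxC26 IL6KOs1 4 held 40.9%, and it remained called without cxC26 IL6KOs1 1 (limma adjusted p = 0.0242).

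**Figure D2:**
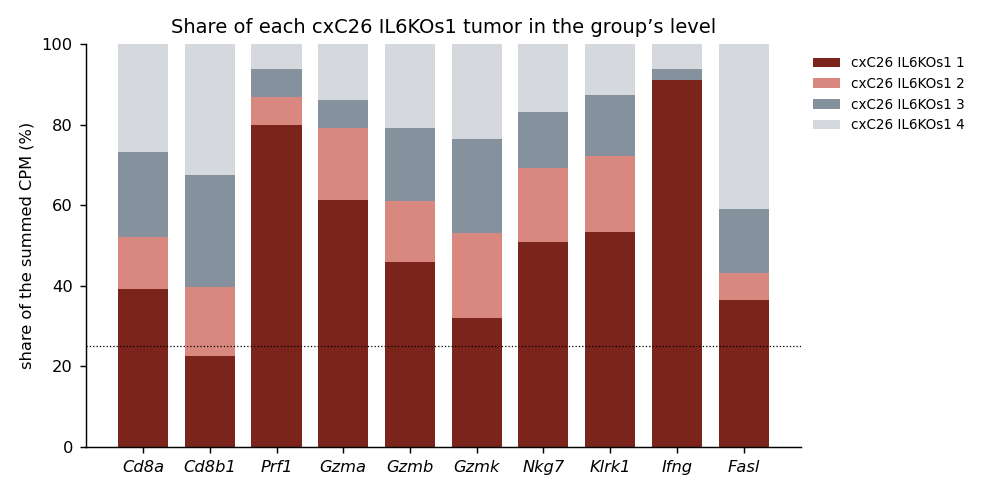
Share of each of the 4 cxC26 IL6KOs1 tumors in the summed CPM of the group, in percent, for each of the 10 genes, with a dotted line at 25%. The dark segment, cxC26 IL6KOs1 1, runs from 22.6% for Cd8b1 to 91.0% for Ifng and 80.0% for Prf1.

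Over the genes, cxC26 IL6KOs1 1 was the highest knockout tumor in 8 of 10, the exceptions being Cd8b1 and Fasl, and held more than an even share in 9 and over 50% in 5 (Prf1, Gzma, Nkg7, Klrk1 and Ifng). Among the controls, cxC26 scr 2 was the highest in 6 of the 9 genes that had reads there. With cxC26 IL6KOs1 1 left out, 7 of the 10 genes were called higher (Cd8a, Cd8b1, Gzmb, Gzmk, Nkg7, Klrk1 and Fasl), where 14.9% of all genes were called higher and 15.7% lower. With cxC26 scr 2 left out as well, 9 were called, against 13.5% of all genes higher and 13.7% lower. As cxC26 scr 2 was the highest control tumor for Prf1 and Gzma, the return of their calls is not an independent check. The median log2 fold change over the 10 genes without cxC26 IL6KOs1 1 was 2.87.

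**Figure D3:**
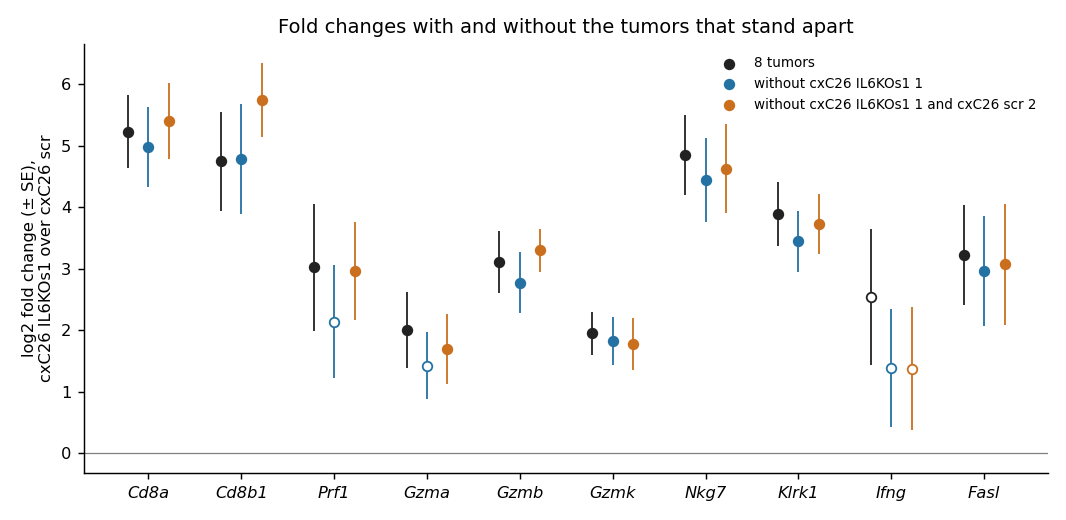
Log2 fold change of cxC26 IL6KOs1 over cxC26 scr for each gene with bars of 1 SE from limma, over all 8 tumors (black), without cxC26 IL6KOs1 1 (blue) and without that tumor and cxC26 scr 2 (orange). Filled points have an adjusted p under 0.05, and Prf1 and Gzma turn open in blue while Ifng is open in all 3.

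Between genes, levels were compared per kilobase of exon (CPM per kilobase, mean ± SD, n = 4). In the cxC26 IL6KOs1 group Gzmb was the highest at 6.53 ± 3.69, and it was followed by Nkg7 at 2.25 ± 1.56, Gzma at 1.60 ± 1.57, Gzmk at 1.42 ± 0.273, Prf1 at 1.41 ± 2.07, Cd8b1 at 1.15 ± 0.307 and Cd8a at 0.993 ± 0.438. Klrk1 at 0.454 ± 0.346, Ifng at 0.431 ± 0.759 and Fasl at 0.414 ± 0.271 were the lowest. In this order only Gzmb and Nkg7, and Cd8a and Klrk1, differed from their neighbour by more than the larger of both SDs. In the cxC26 scr group the granule proteases led, with Gzmb at 0.869 ± 0.791, Gzmk at 0.364 ± 0.127 and Gzma at 0.297 ± 0.160, while Cd8a at 0.0220 ± 0.0212 was the lowest gene with reads. There the sole neighbours that differed by more than the larger SD were Cd8a and the absent Ifng.

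Ratios of reads within a tumor, which need no library size, were compared to see whether the effectors moved with the CD8 chains. The cxC26 scr tumors had 0 to 10 reads of Cd8a and Cd8b1 together, 12 in all, and the cxC26 IL6KOs1 tumors 42 to 117, 325 in all. The ratio of Gzmb to the CD8 chains was 37.0, 4.52, 5 and 5.67 in the cxC26 scr tumors and 2.39, 1.87, 1.37 and 1.28 in the knockout tumors, each count plus 0.5 reads. Pooled over tumors, it was 6.67 (3.61 to 13.4) and 1.78 (1.55 to 2.05). Every knockout tumor was thus below every control tumor, as it was for Gzma (pooled 1.58 and 0.308) and Gzmk (2.58 and 0.369). The difference between the groups in the mean log2 ratio was -2.31 for Gzmb, -3.42 for Gzma and -3.47 for Gzmk. With the CD3 chains as the denominator it was -0.59, -1.70 and -1.75, each with an adjusted exact permutation p of 0.210.

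Relative to the CD3 chains and to Cd4, Cd8a reads were more frequent in the knockout tumors. The control group had only 5 reads of Cd8a, with 24 of the CD3 chains and 68 of Cd4. Cd8a had 0.208 reads per read of Cd3d, Cd3e and Cd3g, the CD3 chains of all T cells, in the pooled cxC26 scr tumors (0.0621 to 0.557) and 0.804 (0.671 to 0.963) in the cxC26 IL6KOs1 tumors. Against Cd4, the co-receptor of helper T cells that macrophages can also transcribe, the ratios were 0.0735 (0.0231 to 0.180) and 1.51 (1.22 to 1.87). The ratios of Cd8a to the CD3 chains and to Cd4 and those of the granzymes each had an exact permutation p of 0.0286. That makes 5 of 11 ratios under 0.05 before adjustment, and 0 of 11 after the Benjamini-Hochberg adjustment (0.0629 for each of the 5). As 0.0286 is the smallest p this test can give, the adjusted value depends on how many ratios reach it. The 0 of 11 is therefore not evidence that the ratios were alike. Nkg7 to the CD8 chains did not separate the groups (pooled 0.250 and 0.391, exact permutation p = 0.486). Neither did Klrk1 (0.917 and 0.622, exact permutation p = 0.114) or Fasl (0.417 and 0.151, exact permutation p = 0.0857). The same held for Prf1 (2.25 and 0.717, exact permutation p = 0.0857) and Ifng (0 and 0.111, exact permutation p = 0.0571). These tests compared the mean log2 ratio with 0.5 added to each count. For Nkg7 and Ifng that difference was -0.575 and -2.88, so lower in the knockout tumors, while the pooled ratios were higher there. No control tumor had an Ifng read, so the Ifng test rests on the added 0.5 reads and does not measure a rise. Cd8b1 to Cd8a was 0.276 in cxC26 IL6KOs1 1 and 0.575 to 0.629 in the other knockout tumors, and the groups overlapped (exact permutation p = 0.571).

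**Figure D4:**
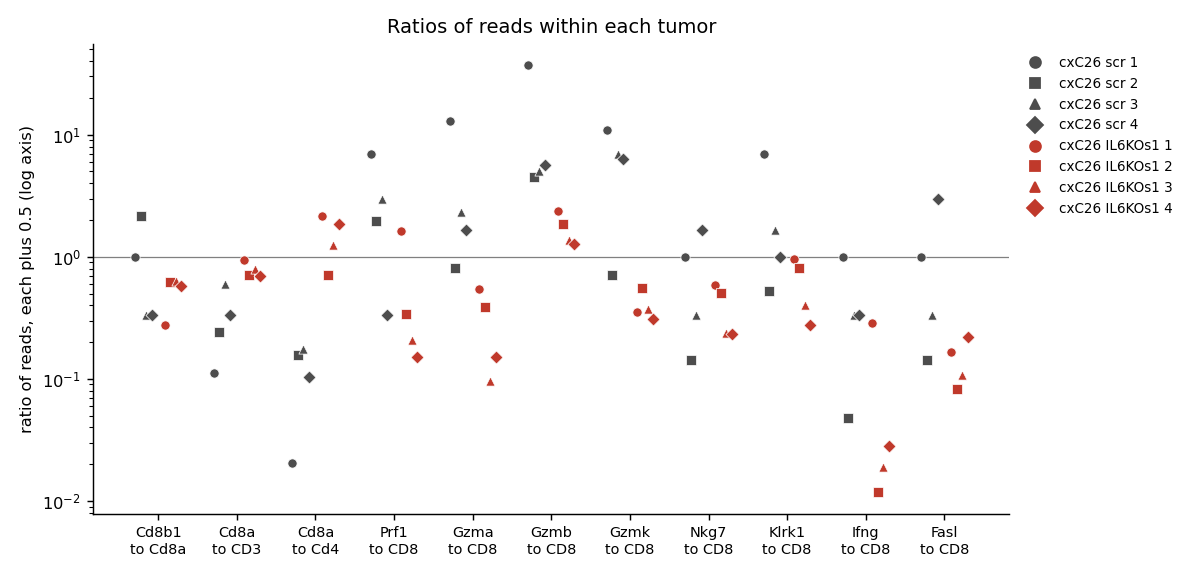
Ratio of reads within each tumor on a log axis, each count plus 0.5, for the 11 ratios compared, where CD3 stands for Cd3d, Cd3e and Cd3g and CD8 for Cd8a and Cd8b1, with grey for cxC26 scr and red for cxC26 IL6KOs1. The red points are above all grey points for Cd8a to CD3 and Cd8a to Cd4 and below them for Gzma, Gzmb and Gzmk to CD8.

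Markers of the cells that can transcribe these genes were examined beside them, and their part in each result was not tested. Of 14 T cell markers, 12 were called higher and none lower (median log2 fold change 2.62), with summed CPM of 32.7 to 43.0 in the cxC26 scr and 71.5 to 101 in the knockout tumors. Most of that sum was Trbc2, a constant segment of the T cell receptor with 418 to 623 reads in the control tumors, of whose 50-base stretches 44.0% are shared with Trbc1, while Cd3g had 0, 5, 1 and 1 reads there and 61, 20, 30 and 51 in the knockout tumors. The sum was 78.2 CPM in cxC26 IL6KOs1 1 and 97.7 and 101 in cxC26 IL6KOs1 3 and 4, whereas the CD3 chains (Cd3d, Cd3e and Cd3g) together had 98, 37, 61 and 80 reads in knockout tumors 1 to 4. Of 6 CD4 and regulatory T cell markers tested, 2 were called higher, Cd4 (log2 fold change 1.25, limma adjusted p = 0.0112) and the costimulator Icos (2.34, limma adjusted p = 0.0216), and without cxC26 IL6KOs1 1 only Cd4 was.

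NK cell markers summed to 24.2 CPM in cxC26 IL6KOs1 1, 6.86 to 9.32 in the other knockout tumors and 5.39 to 7.45 in the controls. Of 9 tested, 5 were called higher and none lower (median 2.19), and 2 without cxC26 IL6KOs1 1, Klrd1 and Klrc1. Klrd1 encodes CD94, the partner of the NKG2 receptor of Klrc1, and both are also found on CD8 T cells. Klrd1 had 2, 1, 1 and 1 reads in the control tumors and 47, 17, 29 and 14 in the knockout tumors. Ncr1, the NKp46 receptor used as an NK cell marker, is named here after its values were seen. It had 0, 5, 2 and 0 reads in the control tumors and 55, 15, 3 and 5 in the knockout tumors. Its largest share was in the tumor that also led in Prf1, Klrk1 and Ifng, and its call was lost without that tumor. Eomes and Cd244a, on the same list, were not called, and the log2 fold change of Eomes, given below, was negative. Klra4 had no read in any tumor, and the list holds receptors that differ between mouse strains while the reads were aligned to the C57BL/6J genome.

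Gzmb is also transcribed by mast cells and plasmacytoid dendritic cells (pDC), and Cd8a by cDC1. Mast cell markers were called higher in 11 of 12 (median 3.28) and summed to 47.2 to 59.9 CPM in the controls, 310 to 330 in cxC26 IL6KOs1 2 to 4 and 86.2 in cxC26 IL6KOs1 1. Gzmb was 0.492 to 2.90 CPM in the controls, 5.70 to 7.80 in cxC26 IL6KOs1 2 to 4 and 17.2 in cxC26 IL6KOs1 1. Mcpt2, a mast cell protease, had 167 reads in cxC26 IL6KOs1 1 and 1148 to 1270 in the other knockout tumors. The pDC markers summed to 498 to 577 CPM in the controls and 457 to 525 in the knockout tumors, mostly from Tcf4, with 4 of 8 called higher (2 without cxC26 IL6KOs1 1) and Tcf4 lower. The cDC1 markers summed to 21.5 to 31.8 and 38.5 to 72.2 CPM, with 4 of 8 called higher, among them the chemokine receptor Xcr1 (log2 fold change 1.60, limma adjusted p = 0.0203; 0.0581 without cxC26 IL6KOs1 1).

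**Figure D5:**
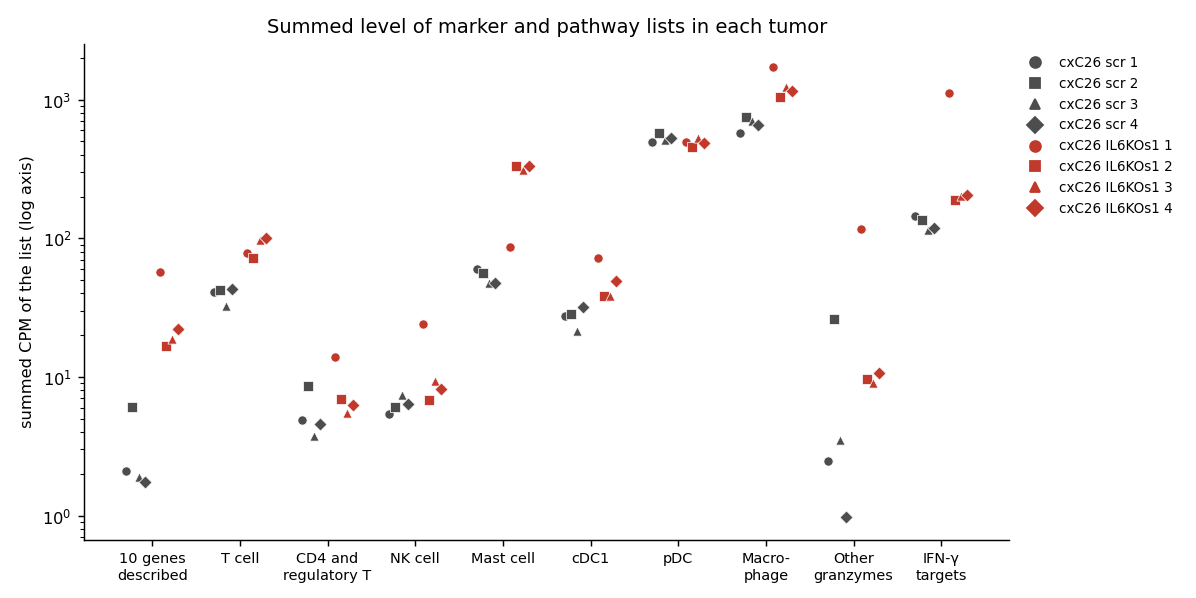
Summed CPM of the 10 genes and of 9 lists of markers and pathway genes in each tumor on a log axis, with grey for cxC26 scr, red for cxC26 IL6KOs1 and a marker shape for each tumor number. cxC26 IL6KOs1 1 (red circle) is the highest tumor for the 10 genes (56.9 CPM), NK cell markers (24.2), other granzymes (116) and interferon gamma targets (1115), and the lowest red point for mast cell markers (86.2).

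Other leukocyte lists were called in part. Macrophage markers were higher in 7 of 8, such as Adgre1 (F4/80, log2 fold change 1.5, limma adjusted p = 3.65e-05), and pan-leukocyte markers in 5 of 6, such as Ptprc (CD45, 1.03, limma adjusted p = 0.00898), with Cytip lower. B cell markers were higher in 1 of 4 (Cd79b), plasma cell markers in 2 of 5 (Jchain and Mzb1, with Sdc1 lower) and neutrophil markers in 1 of 6 (S100a8, with Mmp8 lower). Lymph node markers were at or below 11 reads in every tumor, with none of 4 higher and Cr2 lower, and skin keratinocyte and skeletal muscle markers had none of 5 called each. Muscle markers ranged from 7.67 to 311 CPM over the tumors, and without cxC26 IL6KOs1 1 and cxC26 scr 2, 4 of 5 were called higher. Of 7 colon carcinoma markers, 3 were higher, among them Krt18, and Cdx2 was lower, with 17 to 34 reads in the controls and 0 or 1 in the knockout tumors.

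Among the pathway genes around the 10, the remaining granzymes repeated the split between tumors. Of 6 tested, 2 were called higher, Gzme (log2 fold change 3.16, limma adjusted p = 0.00409) and Gzmm (1.34, limma adjusted p = 0.0483), with a median of 1.88. Gzmd, which was not called (limma adjusted p = 0.0529), had 14, 72, 10 and 2 reads in the control tumors and 314, 24, 45 and 56 in the knockout tumors. Gzmf, named after its values were seen, had 0, 105, 10 and 2 reads and 543, 19, 16 and 6 reads, so cxC26 scr 2 was above 3 of the knockout tumors, as it was for Prf1. Summed CPM of this list was 116 in cxC26 IL6KOs1 1 and 26.4 in cxC26 scr 2, and at most 10.7 in any other tumor. These genes are copies of each other, with 19.4% of the 50-base stretches of Gzmf and 21.9% of those of Gzmd found in other genes, so reads can be split between them.

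Genes that load and release granules were called higher in 10 of 12 (median 0.91), and in 7 without cxC26 IL6KOs1 1. Ctsc, the protease that activates granzymes and is abundant in myeloid cells, had 1113 to 1429 reads in the controls and 6218, 1896, 2920 and 2684 in the knockout tumors (log2 fold change 1.31, limma adjusted p = 0.00108). Ctsw, a cathepsin of cytotoxic lymphocytes, rose by 1.39 (limma adjusted p = 0.00588) and Stxbp2, a regulator of granule fusion, by 1.40 (limma adjusted p = 0.000166). Of 13 inhibitors of granzymes and genes of the death pathway in target cells, 4 were called higher and 2 lower (median 0.25). Serpinb9b, of the family of granzyme B inhibitors, rose by 2.78 (limma adjusted p = 6.92e-05) and Serpinb6b by 1.78 (limma adjusted p = 0.000177), whereas Cflar, an inhibitor of death receptor signalling, fell by 0.28 (limma adjusted p = 0.0244). Fas, the receptor of Fas ligand, was the other gene called lower.

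Of 7 adaptors and activating receptors, 4 were called higher (median 1.32), among them Tyrobp, an adaptor of NK and myeloid receptors (log2 fold change 1.32, limma adjusted p = 0.000289), and Slamf7 (1.77, limma adjusted p = 0.0173). For the ligands of NKG2D, the receptor encoded by Klrk1, 5 of 9 listed genes were matched and tested. Raet1a, Raet1b, Raet1c and H60a were not among the deposited genes. By the study the C26 line came from Balb/c mice, whereas the reads were aligned to the C57BL/6J genome. Sequence shared within this family was not examined, so whether reads of other members fell on the genes below was not tested. Raet1d (1.75, limma adjusted p = 0.000951) and Raet1e (1.04, limma adjusted p = 0.0236) were higher and H60b was lower (-1.02, limma adjusted p = 0.0284), and only Raet1d was called without cxC26 IL6KOs1 1. Ulbp1, the ligand with the most reads, was not called (0.13, limma adjusted p = 0.515).

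Of 11 transcription factors of effector lymphocytes, 3 were called higher and none lower (median 0.19), and without cxC26 IL6KOs1 1 the calls were 1 higher (Tbx21) and 1 lower (Prdm1), with a median of -0.03. Tbx21 (T-bet), a T-box factor of cytotoxic cells, had 4, 0, 0 and 0 reads in the control tumors and 20, 9, 7 and 6 in the knockout tumors (log2 fold change 3.56, limma adjusted p = 0.00392). The T-box factor Eomes, with 19 to 45 reads in the controls and 9 to 42 in the knockout tumors, was not called (-0.43, limma adjusted p = 0.467). Of 7 naive and memory genes, 3 were called higher and Lef1 lower, from 366 to 461 reads to 23 to 52 (log2 fold change -3.33, limma adjusted p = 1.57e-06). Without cxC26 IL6KOs1 1 the number called higher was 1. In the control tumors Lef1 and Eomes had more reads than Cd3d, Cd3e and Cd3g together (4, 14, 2 and 4). Which cells transcribed them was not tested. Of 7 inhibitory receptors 2 were called higher, Pdcd1 (PD-1) with 7, 9, 3 and 0 reads in the controls and 58, 11, 28 and 26 in the knockout tumors (3.05, limma adjusted p = 0.0114), and Havcr2 (1.21, limma adjusted p = 0.00166).

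Downstream of interferon gamma, 8 of 13 target genes were called higher and none lower (median 1.72), and 7 without cxC26 IL6KOs1 1. Their summed CPM was 115 to 145 in the controls, 188 to 205 in cxC26 IL6KOs1 2 to 4, which had 0 to 2 Ifng reads, and 1115 in cxC26 IL6KOs1 1. Cxcl9, a chemokine that draws CXCR3-bearing T cells, had 13, 24, 7 and 8 reads in the control tumors and 3038, 23, 50 and 67 in the knockout tumors (log2 fold change 3.42, limma adjusted p = 0.0321). Without cxC26 IL6KOs1 1 it was 1.93 (limma adjusted p = 0.00630). Irf1, the target of highest level, was not called (0.55, limma adjusted p = 0.200). Of 5 receptor and signalling genes 2 were called higher, among them Ifngr1 (0.75, limma adjusted p = 0.000162). Of 14 tested cytokines, chemokines and receptors of T cells 6 were, among them Cxcr6 (4.56, limma adjusted p = 0.000246).

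Among 13054 other genes (mean log2 CPM of 0 or more), the pattern over the 8 tumors was most like the median of the 10 genes for Il2rb, the beta chain of the IL-2 and IL-15 receptors, with a root mean square difference of 0.25 on the log2 scale after centring. Il2rb had 8, 14, 4 and 4 reads in the control tumors and 167, 32, 43 and 48 in the knockout tumors. Serpinb9b (0.47), Ly6c2 (0.49), Ms4a4b (0.53), Oas1g (0.59) and Acod1 (0.59) followed. Of the 10 genes themselves, Klrk1 (0.41) and Gzmb (0.46) were nearest to that median and Cd8b1 (1.28) the farthest. These are descriptions over 8 tumors that share 1 contrast and the tumor cxC26 IL6KOs1 1.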

How the data were processed

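RNA-seq of 8 mouse tumors was used, 4 cxC26 scr and 4 cxC26 IL6KOs1, grouped by their titles. The deposited values are log2 CPM that the authors made with limma-voom, the log2 of reads plus 0.5 over the effective library size plus 1, scaled to CPM. Before that, paired reads had passed Trimmomatic, Hisat2 (mm10) and featureCounts. The annotation and strand setting are not given in the sources used here, and the submitters' processing notes name bcl2fastq 2.17. Reads were recovered by inverting this form at the lowest value of each tumor, and 100% came out whole within 0.05. Depth was 14158989 to 17048062 reads per tumor, so 3 reads are 0.180 to 0.217 CPM.

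The log2 CPM of 17078 genes with at least 10 reads in total, a filter blind to group, were compared with limma 3.58.1 in R 4.3.3 (lmFit, then eBayes with trend, no covariate), Benjamini-Hochberg adjustment and a threshold of 0.05. For single genes and 11 ratios of reads, exact permutation tests (two-sided, 70 splits) were run in Python 3.11.15 with SciPy 1.17.1. Pooled ratios have exact 95% intervals (Clopper-Pearson, converted) that cover counting error only. The procedures were tested on simulated data. Exon lengths came from GENCODE M21, and upstream sequences and positions from RefSeq GRCm38.p6.

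The 10 genes, the 15 marker and 11 pathway lists and the tests were chosen with earlier results of these data known. All 10 genes were named, with, from each list, the 2 genes of highest level, the 2 called genes of largest change and any gene of a list with at most 5 tested. The 6 genes most like the 10 had the smallest root mean square difference from their median. Alternatives were other filters, variance models, scalings, pseudocounts, a replicate block and each tumor left out. Leaving out cxC26 IL6KOs1 1 and cxC26 scr 2 together was chosen after seeing the data. Some genes that this rule names are not reported here. Flow cytometry and serum measurements were not analysed here.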

Additional observations from a re-analysis of the deposited data

Results flagged for a closer look

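In groups of 4 tumors, a tumor is listed here where its gap to the nearest other tumor, as a share of the range of its group, is over Dixon's 95% value. For independent normal values about 1 in 20 would be listed, or 4.8 of the 96 groups examined, and 13 were found. The groups share genes and tumors and the summed CPM were not logged, so 13 against 4.8 does not measure an excess. Among single genes, Cd8b1 stood at -1.11 log2 CPM in cxC26 scr 2 and at -5.06 to -4.83 in the other controls, and Prf1 at 3.55 in cxC26 IL6KOs1 1 and -0.10 to 0.07 in the other knockout tumors. Among ratios, the log2 ratio of Cd8b1 to Cd8a was -1.86 in cxC26 IL6KOs1 1 against -0.80 to -0.67, and that of Gzmb to the CD8 chains was 5.21 in cxC26 scr 1, which had no CD8 read, against 2.18 to 2.50.

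The remaining 9 are summed CPM of lists. cxC26 IL6KOs1 1 was high against the other knockout tumors in the 10 genes (56.9 against 16.7 to 22.0), CD4 and regulatory T cell markers (14.0 against 5.52 to 6.93), NK cell markers (24.2 against 6.86 to 9.32), other granzymes (116 against 9.07 to 10.7) and interferon gamma targets (1115 against 188 to 205), and low in mast cell markers (86.2 against 310 to 330). cxC26 scr 2 was high against the other controls in the 10 genes (6.12 against 1.75 to 2.10) and other granzymes (26.4 against 0.975 to 3.51). cxC26 scr 1 was high in skin keratinocyte markers (25.8 against 11.3 to 13.4). What set these tumors apart was not tested.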

How the results depend on the processing

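All 10 genes kept their direction in every alternative that tested them, and 7 (Cd8a, Cd8b1, Gzmb, Gzmk, Nkg7, Klrk1 and Fasl) kept their call in each. Prf1 lost its call in 9 of 18 alternatives (adjusted p up to 0.145) and Gzma in 8 of 17 (up to 0.104), with no filter, precision weights, no trend, a pseudocount of 1 CPM and several left-out tumors among them. Ifng gained a call without cxC26 IL6KOs1 2 (log2 fold change 3.33, adjusted p = 0.0361). The filter of 1 CPM in 4 tumors did not test Gzma, Ifng or Fasl. Cd8a, Cd8b1, Gzmk, Nkg7 and Klrk1, under 1 CPM in every control tumor, passed it only through the knockout group. Their calls under it are therefore no added check. The filter of a mean of 0 log2 CPM tested only Gzmb and Gzmk and called 2 of 2. Of all 13056 genes under that filter, 2480 were called higher and 2699 lower. With each tumor left out in turn, 7 to 9 of the 10 genes were called, 2119 to 2681 of all genes higher (2707 with all tumors) and 2161 to 2686 lower (2766).

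Of all genes tested, 15.9% were called higher and 16.2% lower. The share of tested genes called higher ran from 27.3% to 83.3% over the pathway lists and from 0 to 91.7% over the marker lists. Of the pathway genes, 46 were called higher and 4 lower, with 34 to 44 and 1 to 4 when a tumor was left out. The counts were 28 and 2 without a filter, and 1 lower without a trend. Of the marker genes, 57 were higher and 6 lower, with 46 to 61 and 3 to 6 when a tumor was left out, 34 higher and 3 lower under the mean filter, and 3 lower without a filter or without a trend. Of the ratios, 0 to 7 of 11 passed when a tumor was left out, the 7 without cxC26 scr 2 (adjusted exact permutation p = 0.0449). Whether any passed depended on how many ratios reached the smallest p the test can give. With CD3 reads as the denominator the difference shrank to -0.59 for Gzmb, -1.70 for Gzma and -1.75 for Gzmk and turned to 1.14 for Nkg7 and 0.19 for Klrk1, and that of Cd8b1 to Cd8a ran from -0.84 to 0.054 when a tumor was left out, turning without cxC26 scr 2. The cause was not tested.

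Same-numbered tumors did not deviate together (correlations of -0.0596, -0.0161, 0.0129 and -0.0535). With a replicate block 9 of the 10 genes were called, where 2618 of all 17078 genes were called higher and 2683 lower. The remaining limit is depth: the CD8 chains had 12 reads in the control group and Ifng none, so low control levels and ratios to them are imprecise.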
